A study of Mus musculus with 2 samples.

Results

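The genes of the cytosolic ribosome's proteins were examined on 1 array of wildtype and 1 array of Malat1 knockout mouse embryonic fibroblasts, a connective tissue cell grown from dissociated embryos. A gene was taken when its symbol in the array's annotation had the form Rpl or Rps with a number and an optional suffix, or was Rpsa, Rplp0, Rplp1, Rplp2 or Fau, without the ribosomal S6 kinases, and when a probe set carried that symbol alone. This found 50 genes of 18194, 26 of the large (60S) and 24 of the small (40S) subunit, through 106 probe sets. Both cultures came from C57BL/6 embryos at day 13.5, were kept for 2 weeks and received no treatment, and they are labelled by genotype as wildtype and Malat1 knock-out. The number of embryos behind each culture is not stated in the labels. Because each genotype has 1 array, no difference can be set against a spread between replicates, no p-value is given, and precision is limited by that number.

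The ribosome is built from ribosomal RNA and equal amounts of most ribosomal proteins, so their mRNAs are needed in matched amounts and are among the most abundant in growing cells. Many begin with a C followed by an unbroken run of pyrimidines, the 5′ terminal oligopyrimidine (TOP) tract, through which the mTOR pathway and the protein Larp1 adjust their translation together. Malat1, the RNA missing in the knockout, is a nuclear long noncoding RNA held at the speckles that store splicing factors.

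Signals are given on the log2 scale, as deposited, and every difference is the knockout signal minus the wildtype signal. Signals of different probe sets do not give an order of RNA amounts. A signal was taken as measured if it reached the median of its array (the floor, 5.39 for the wildtype and 5.44 for the knockout), and each gene's brightest probe set stood for it. As a check of the labels, the brightest of 7 Malat1 probe sets gave 9.80 for wildtype and 4.53 for knockout, below the floor. All 14 markers of fibroblasts were measured on both arrays, with 11 of them lower in the knockout and a median of -0.28. Of the markers of other cell types, 5 of 10 epithelial genes were measured and all 5 were higher in the knockout (median 0.47), as were all 5 measured of 10 endothelial genes (0.41). Of 12 macrophage and leukocyte markers 11 were measured and 9 were lower (-0.37), while 5 of 8 muscle genes were measured, 3 higher and 2 lower (0.22), and all 7 neural genes found, 4 higher and 3 lower (0.28). Xist, the RNA of the inactive X chromosome, read 4.50 and 11.49, so the arrays also differ in sex-linked transcripts. The part of these differences in the results below was not tested.

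Start sites of the family are shown because the TOP tract is a feature that the choice of genes did not use. RefSeq promoter windows (assembly GRCm38.p6, 250 bases before to 50 after the annotated start) were matched by symbol for 44 of the 50 genes, in 52 windows. A C at the annotated start followed by C or T alone, for a run of at least 5 bases, was present in 9 of the 52 windows (17.3%), against 2.51% of the 32851 windows of all genes. With the run allowed to begin within 5 bases of the annotated start the shares were 42.3% and 18.3%. The motif CCGGAAG, bound by factors of the ETS family such as GABP, was found on either strand in 40.4% of the family's windows and 8.86% of all windows. The YY1 motif AAGATGG, also on either strand, was found in 17.3% and 6.34%. A match is a description of these letters, not a binding site. The sequences below run 5′ to 3′ from 40 bases before to 20 bases from the start. Capitals mark the pyrimidine run counted from a C at the start, or from position 4 in Rpl22l1. Lower-case pyrimidines directly before the capitals belong to the same stretch. The first 5 are ribosomal protein genes with a long run at the start, Rpl22l1 has its run from position 4, and in Rpl39l no run of at least 5 begins at a C within 5 bases of the start, although a pyrimidine run ends at the base before it.
Rpl35 (chr2:39005112-39005171, minus strand): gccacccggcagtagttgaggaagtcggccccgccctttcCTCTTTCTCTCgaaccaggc
Rpl38 (chr11:114668540-114668599, plus strand): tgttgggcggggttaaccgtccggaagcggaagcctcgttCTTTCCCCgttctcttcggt
Rps10 (chr17:27635225-27635284, minus strand): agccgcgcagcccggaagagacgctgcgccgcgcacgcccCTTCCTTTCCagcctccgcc
Rps18 (chr17:33955646-33955705, minus strand): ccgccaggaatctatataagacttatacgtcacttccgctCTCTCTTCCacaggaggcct
Fau (chr19:6057907-6057966, plus strand): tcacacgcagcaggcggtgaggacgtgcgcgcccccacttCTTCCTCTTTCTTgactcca
Rpl22l1 (chr3:28805468-28805527, plus strand): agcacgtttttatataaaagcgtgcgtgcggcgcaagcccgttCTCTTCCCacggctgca
Rpl39l (chr16:10170188-10170247, plus strand): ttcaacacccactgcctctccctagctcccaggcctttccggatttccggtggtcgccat

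Signals of the ribosomal protein genes were alike on both arrays. Of the 50 genes 48 were measured on both, and none of the 48 differed by 1.5-fold. Of all 11295 measured genes 2.44% passed that size, 0.832% higher and 1.61% lower in the knockout, and 0.336% passed 2-fold, 0.0708% higher and 0.266% lower. The count of 0 in 48 is thus close to the background, and nothing particular to the family is read from it. The median difference was 0.0059 over the 48 genes and -0.05 over all measured genes. Of the 48, 25 were higher and 23 lower in the knockout, and 59.8% of all measured genes were lower. That split depended on the scaling of the arrays. When the arrays were shifted to a median difference of 0, 11 of the 48 were lower, after quantile normalization 21 and after loess centring 32. In each of these the share of all genes that were lower was 47.5%, 44.8% and 47.1%, and the family's median was 0.068, 0.012 and -0.015. No direction can therefore be given for the family as a whole, and of the 41 genes of the family that the naming rule picks 19 changed sign under some setting.

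**Figure D1:**
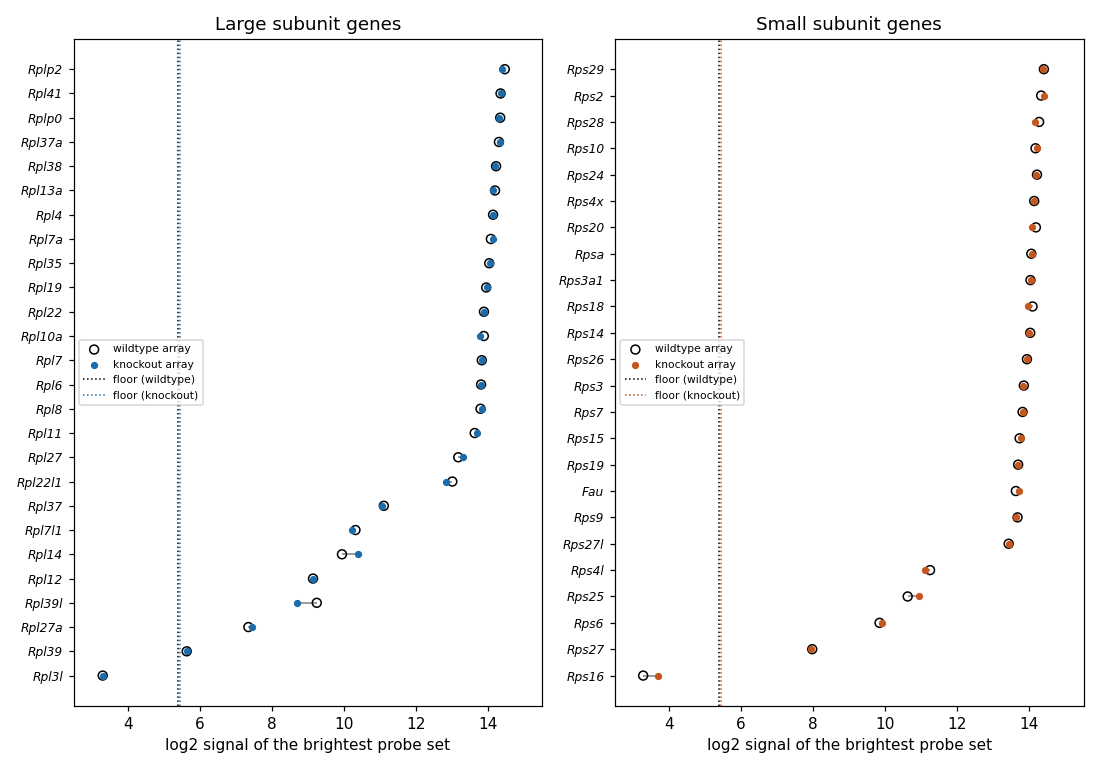
Log2 signal of the brightest probe set of each of the 50 ribosomal protein genes, large subunit on the left and small subunit on the right, with open circles for the wildtype array and filled points for the knockout array. Dotted lines are the floors at 5.39 and 5.44, only Rpl3l and Rps16 lie under them, and the circle and point of most genes overlap.

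The spread of the differences was small beside that of other genes, and so was the spread of other bright genes. Of the 48 genes 36 differed by less than 0.1, against 38.0% of all measured genes, and the median size of the difference was 0.036 against 0.14. Most of these genes gave signals close to the top of the scale, where the highest value on either array was 14.71. The mean signal was at least 13 for 36 of them, which made up 24.2% of the 149 genes at that level. These 36 ran from -0.12 for Rps18 to 0.12 for Rpl27, with 31 (86.1%) within 0.1 and a median size of 0.031. The 113 other genes at that level ran from -0.34 to 0.44, with 80 (70.8%) within 0.1 and a median size of 0.055. Among other genes the median size was 0.089 at means from 11 to 13 and 0.20 at means under 7. Scanner flags for saturated probes were not used here, so what part of the small differences belongs to the top of the signal range was not tested.

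**Figure D2:**
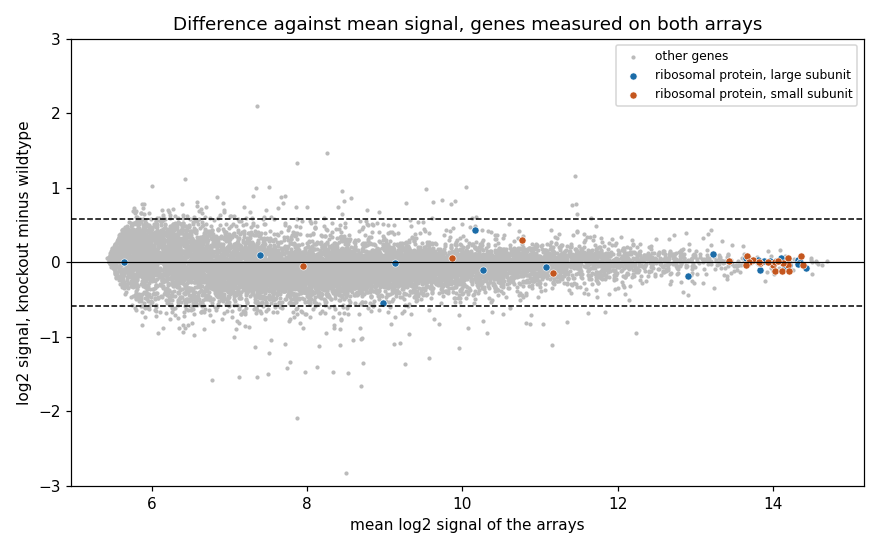
Difference in log2 signal, knockout minus wildtype, against the mean log2 signal for the 11295 genes measured on both arrays, with other genes in grey and ribosomal protein genes in blue (large subunit) and orange (small subunit). Dashed lines mark 1.5-fold. The 36 ribosomal protein genes at a mean of at least 13 lie between -0.12 and 0.12, and the grey points also narrow toward that level.

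Proteins of the large subunit form the peptidyl transferase centre's surroundings, the tunnel through which the new chain leaves and the stalk that recruits elongation factors. Of 26 large subunit genes 25 were measured, 13 higher and 12 lower in the knockout, with a median of 0.0078 and 18 within 0.1. Under the other scalings 7 to 16 of the 25 were lower. The stalk genes Rplp0 and Rplp2 read 14.33 and 14.46 in the wildtype and 14.31 and 14.39 in the knockout, differences of -0.028 and -0.073. Of these 2 genes 1 or 2 were lower under the other scalings. Rplp0, often used as a reference gene, thus differed by less than 0.1. For the exit tunnel and its rim, 5 of 9 listed genes were found and all 5 were within 0.1, from -0.0048 for Rpl4 to 0.024 for Rpl19. Rpl4 lines the tunnel wall and read 14.14 and 14.13. Rpl11, which joins the 5S ribosomal RNA particle and can bind the p53 regulator Mdm2, read 13.63 and 13.69. Rpl8, near the catalytic centre, read 13.79 and 13.82, and Rpl10a, on the mobile L1 stalk, 13.88 and 13.78. Rpl6, Rpl7, Rpl7a, Rpl13a, Rpl22, Rpl35, Rpl37a, Rpl38 and Rpl41 differed by -0.069 to 0.056.

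Rpl14, a 60S protein on the solvent side, had the highest positive difference of the family. Its wildtype signal of 9.94 stood against 10.38 in the knockout, higher by 0.44 (1.36-fold). Rpl27 read 13.17 and 13.29, and its dimmer probe sets ran down to -0.016. Rpl27a was represented by a dim probe set at 7.35 and 7.45, and Rpl12, part of the stalk base, by one at 9.14 and 9.12. Rpl39, a small protein of the exit tunnel, read 5.63 and 5.64, just above the floor, and Rpl37 read 11.10 and 11.04. Rpl14, Rpl12, Rpl37 and Rpl39 have this 1 probe set each that names them alone, so the value of Rpl14 has no second probe set beside it.

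Proteins of the small subunit shape the decoding site and the path of the mRNA. Of 24 small subunit genes 23 were measured, 12 higher and 11 lower in the knockout, with a median of 0.0042 and 18 within 0.1. Under the other scalings 4 to 16 of the 23 were lower. Rps3, at the mRNA entry, read 13.84 and 13.83, and Rps2, beside it, 14.33 and 14.41. Rpsa, which is also known as the laminin receptor precursor, read 14.05 and 14.07. Rps6, the substrate of the S6 kinases, read 9.84 and 9.90 at the brighter of 2 probe sets. Fau, whose product is the ribosomal protein eS30 fused to a ubiquitin-like protein, read 13.62 and 13.70. Rps10, Rps15, Rps19, Rps26 and Rps3a1 differed by 0.0042 to 0.054. Both genotypes gave the same picture for each of these, with no gene 0.1 apart.

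Rps25, a protein used by some viral and cellular internal ribosome entry sites, had the highest difference of the small subunit, with 10.62 for the wildtype against 10.92 for the knockout (0.30, 1.23-fold). Like Rpl14 it has a single probe set below a signal of 13. At the other end were Rps4l (11.24 and 11.10), Rps18 (14.09 and 13.97), Rps28 (14.27 and 14.15) and Rps20 (14.18 and 14.07), all lower by 0.11 to 0.14. The measured probe sets of Rps18 ran from -0.14 to 0.15, those of Rps28 from -0.11 to 0.025 and those of Rps20 from -0.11 to -0.045. Rps20 was thus the one of the 3 whose probe sets shared a sign. Rps16 read 3.28 and 3.71, under the floor in both genotypes, and gave no measured value.

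**Figure D3:**
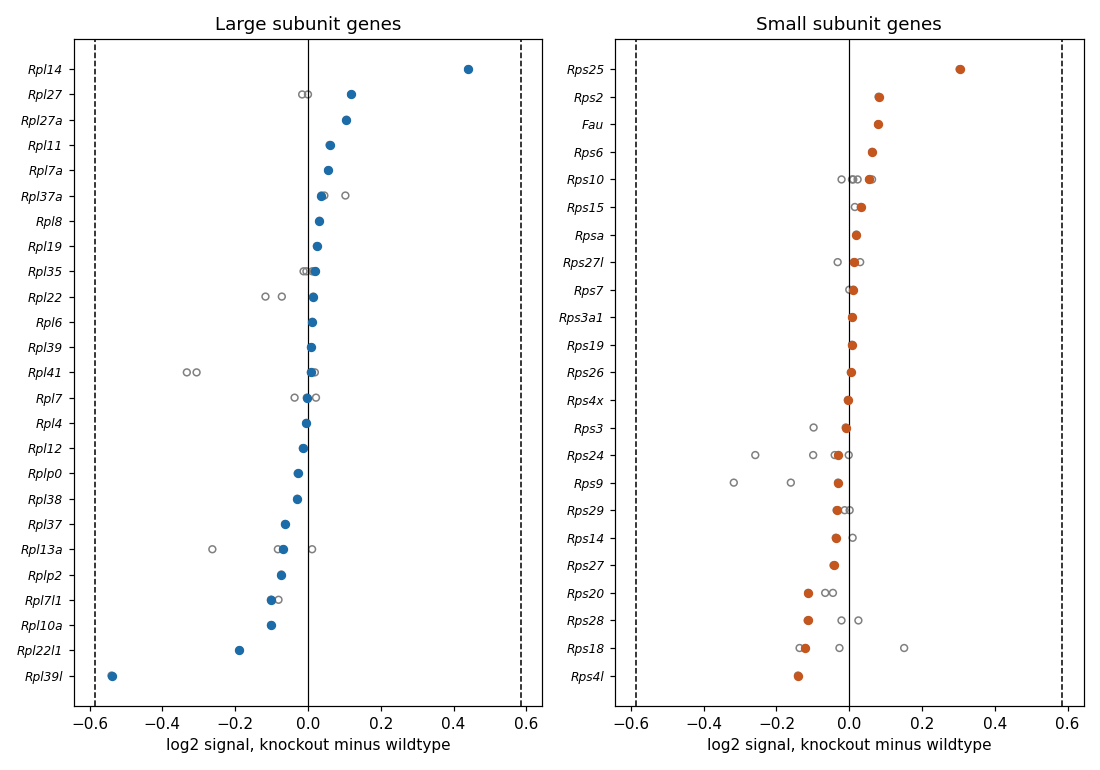
Difference in log2 signal, knockout minus wildtype, for the 48 measured ribosomal protein genes, large subunit on the left and small subunit on the right. Filled points are the brightest probe set, grey circles the other measured probe sets of the gene, and dashed lines mark 1.5-fold, which no point reaches. Rpl39l at -0.54 and Rpl14 at 0.44 lie farthest out.

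Paralogs, extra gene copies that encode variant ribosomal proteins and are often restricted to certain tissues, held the largest negative differences. Rpl39l, the copy of Rpl39 known for its expression in testis, read 9.24 against 8.70 in the knockout, 1.45-fold lower (-0.54). This was the largest difference of the family, just inside the 1.5-fold mark, and it rests on 1 probe set. Its range under the other settings was -0.54 to -0.44. Rpl22l1, the copy of Rpl22 that can replace it in the ribosome, had a wildtype signal of 13 and a knockout signal of 12.82 (-0.19), while Rpl22 itself read 13.88 and 13.90. The dimmer probe sets of Rpl22 brought its range to -0.12 to 0.014. Rps4l, a copy of the X-linked Rps4x, differed by -0.14, and Rps4x read 14.13 on both arrays (-0.0039). Rpl7l1, a relative of Rpl7 with a part in ribosome assembly, read 10.32 and 10.22, and its 3 probe sets lay between -0.10 and -0.081. Rps27l, a p53 target that binds Mdm2, read 13.42 and 13.44. Rpl3l, the copy of Rpl3 found in heart and skeletal muscle, was under the floor, at 3.30 in both.

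Of the 5 measured paralogs 4 were lower, where 59.8% of all measured genes were lower. Under the 3 other scalings 4 or 5 were lower, where 44.8% to 47.5% of all genes were. With 5 genes nothing particular to the paralogs is read from these counts. Without them the 43 other measured genes had a median of 0.0078 and ran from -0.12 to 0.44. The paralogs other than Rps27l had mean signals under 13. The 12 measured ribosomal protein genes there had a median size of 0.10. These paralogs are among the 12, so that value is no separate yardstick for them. Among genes outside the family the median size was 0.15 at means from 7 to 9, 0.11 from 9 to 11 and 0.089 from 11 to 13.

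Several other groupings cut across the subunits. Of 20 listed genes mutated in Diamond-Blackfan anaemia, an inherited failure of red cell production, 12 were found and measured. Among these 7 were higher and 5 lower, from -0.11 for Rps28 to 0.12 for Rpl27, with Rps19, the gene most often affected, at 13.69 on both arrays. Under the other scalings 2 to 8 of the 12 were lower. Of 5 genes whose products bind Mdm2 or form the 5S particle, 3 were found, Rps7, Rpl11 and Rps27l, at 0.011, 0.059 and 0.013. The X-linked genes Rpl39 and Rps4x differed by 0.0083 and -0.0039, with Rpl39 just above the floor at 5.63 and 5.64. The arrays also differ in Xist and Y-linked transcripts, and for these genes sex and genotype cannot be told apart.

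Several probe sets for a gene read the same RNA and do not count as replicates, but they show how far a value depends on the probes. Of the 106 probe sets 94 were measured on both arrays, 51 lower and 42 higher, with none at 1.5-fold. Of 20 genes with several measured probe sets, 12 had all of them within 0.1 of each other, against 25.6% of the 4883 such genes on the arrays. The median range was 0.076 against 0.20. This comparison is not matched for signal, and differences were smaller at bright probe sets, so nothing particular to the family is read from it. Rps7 had the narrowest range, 0.0 to 0.011, its dimmer probe set holding the same value on both arrays (13.62). The widest was that of Rpl41, which encodes a very short basic peptide, with bright probe sets at 0.0078 and 0.019 and dim ones at -0.31 and -0.33. Rps9 (-0.32 to -0.031), Rpl13a (-0.26 to 0.011) and Rps24 (-0.26 to -0.0016) showed the same pattern, their lowest values coming from probe sets dimmer than the one that represents the gene. Rps18 ran the other way, its dimmest measured probe set (6.05 and 6.20) being the highest of its range of -0.14 to 0.15, and a dimmer probe set of Rpl37a was also its highest, at 0.10. The 63 probe sets with a mean of at least 13 had a median size of 0.027, and the 31 dimmer measured ones 0.10, with 22 of the 31 lower in the knockout. Among other genes 3102 of 4395 were lower at means from 7 to 9, 1881 of 2926 from 9 to 11 and 451 of 956 from 11 to 13. The count of lower dim probe sets is thus not read as particular to the family.

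Ribosomal protein genes have many processed pseudogenes, and 40 of the 106 probe sets are of a class (ending in _x_at) whose probes can pick up related transcripts, 14 of the 50 genes being represented by such a probe set or by one ending in _s_at. Another 110 probe sets carry a ribosomal protein symbol together with other symbols, mostly pseudogenes, and were not assigned to a gene. Of these 101 were measured, 49 lower and 51 higher, with a median of 0.0021 and a range of -0.40 to 0.56. A further 28 symbols of the family's form occur on these shared probe sets alone, so the 50 genes are not the whole ribosome.

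The wider translation machinery was compared through gene lists, each given by its counts and median beside the median of all measured genes (-0.05). At its brightest probe set no measured list member passed 1.5-fold in any of the 8 lists, a size that 2.44% of all measured genes passed. Some dimmer measured probe sets did pass it, among them 1 each of Eif2s2 (-0.77) and Pabpc1 (-0.63) and the lowest of Snhg1 (-1.08). Of 20 other mRNAs known to begin with a TOP tract 17 were measured, 10 lower and 6 higher, with a median of -0.020 (-0.024 to 0.042 under the other scalings) and a median size of 0.037. Eef1a1, the elongation factor that delivers tRNA, read 14.47 and 14.51, Eef2, which drives translocation, 13.22 and 13.06, Eef1b2 14.06 and 13.95, and Tpt1 14.56 on both arrays. Of 24 measured translation initiation factors 13 were lower and 11 higher (median -0.021, and -0.028 to 0.041 under the other scalings), with Eif5b, which joins the subunits, at 9.31 and 8.94 and all 3 of its probe sets lower.

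Mitochondrial ribosomal proteins, which build the separate ribosome inside mitochondria, were mostly higher in the knockout, 55 of 76 measured genes with 19 lower and a median of 0.035. Of all measured genes 39.2% were higher. With the arrays rescaled in the 3 ways, under which 44.8% to 47.5% of all genes were lower, 65 or 66 mitochondrial genes were higher and the medians were 0.096 to 0.10. Mrpl35 had the largest difference, 10.03 and 10.47 (0.44), followed by Mrpl11 (0.26) and Mrps14 (0.24). These mitochondrial genes had signals of 7.59 to 11.53 in the wildtype, below most cytosolic ones. Ribosome biogenesis factors of the nucleolus were evenly split, 25 higher and 24 lower of 50 as deposited, with a median of 0.0092, but 35 or 36 were higher under the other scalings, with medians of 0.064 to 0.071. As deposited, Bop1 differed by -0.26 and Grwd1, a chaperone of Rpl3, by 0.25. RNA polymerase I and its factors, which make ribosomal RNA, were split as deposited, 8 and 8 of 16 (median -0.016), but 10 to 12 were higher under the other scalings (medians 0.042 to 0.057), with Tcof1 at -0.30 and Polr1d at 0.26. The 3 control probe sets for 18S ribosomal RNA were higher in the knockout, by 0.58, 0.67 and 0.47. They are array controls in a 3′ IVT protocol, and their signals are not read here as amounts of ribosomal RNA.

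Most of the listed regulators were lower in the knockout, as were 59.8% of all measured genes. Of 8 transcription factors known at ribosomal protein promoters 6 were lower, with a median of -0.21 that was -0.18 to -0.15 under the other scalings. Gabpb2 read 8.13 and 7.73, Gabpa, the DNA-binding subunit of GABP, 9.93 and 9.67, Sp1 9.83 and 9.60 and Yy1 11.04 and 10.88. All 3 Sp1 probe sets were lower, the second Gabpa probe set differed by -0.046, and Gabpb1 differed by 0.10 at its brighter and -0.50 at its dimmer probe set. Of 15 measured regulators of TOP mRNAs and S6 kinases 12 were lower (median -0.16, and -0.099 to -0.088 under the other scalings). Among them Myc, which drives ribosome production, read 9.48 and 9.20, Rps6kb2 7.33 and 7.05, Mtor 8.62 and 8.50, and Larp1 10.21 and 10.12. A dimmer Mtor probe set was higher by 0.31. The list mixes genes that promote and genes that restrain this pathway, so its count gives no direction for the pathway. Of the restraining genes, Tsc1, Eif4ebp1 and Eif4ebp2 differed by -0.22, -0.16 and -0.20, and Tsc2 by 0.12. Other genes with means from 7 to 9, the level of several of these factors, had a median of -0.10.

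Host genes of small nucleolar RNAs, noncoding or short-lived TOP transcripts whose introns hold the guides for ribosomal RNA modification, differed in both directions, 5 higher and 5 lower of 10 (median -0.024, but 0.011 to 0.038 under the other scalings). Gas5 read 11.85 and 12.08, with 3 of its 4 probe sets higher. Snhg1 read 11.37 and 11.76, and its 5 probe sets ran from -1.08 to 0.39. The median size of the difference in this list was 0.23, against 0.036 for the ribosomal protein genes. The 2 values are not matched for signal. Host genes had wildtype signals of 7.16 to 11.85, below most ribosomal protein genes, and genes outside the family with means from 9 to 11 had a median size of 0.11.

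**Figure D4:**
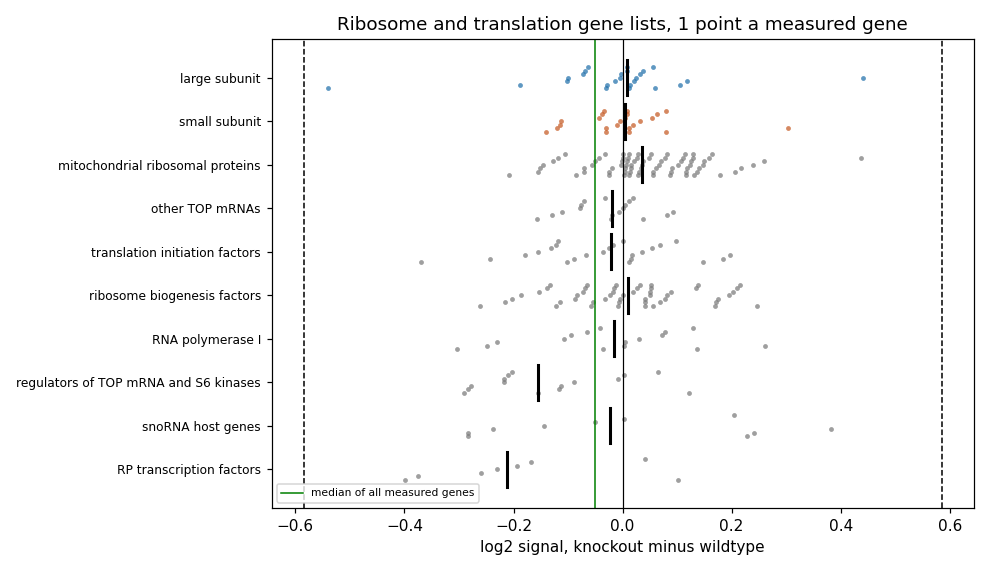
Difference in log2 signal, knockout minus wildtype, for each measured gene of the large and small subunit and of 8 lists of translation genes, with 1 point a gene, a black bar at each list's median, a green line at the median of all measured genes (-0.05) and dashed lines at 1.5-fold. The subunit lists cluster near 0 and the transcription factor list has the lowest median, -0.21.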

How the data were processed

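The data were 2 Affymetrix Mouse430_2 arrays, 1 a genotype, with groups taken from the genotype label. Per the labels' protocols, a 3′ IVT Express kit turned 100 ng of total RNA into biotin-labelled target. The table that the authors deposited gives each probe set 1 value an array, taken here as log2 signals because the values run from 2.09 to 14.71; no source used here gives the summarization or normalization. Of 45101 probe sets 1211 held the same value on both arrays, for a reason that is not known. Among them were the brightest probe sets of 119 measured genes, Tpt1 included, but of no measured ribosomal protein gene. A dimmer measured probe set of Rps7 was also among them. Gene symbols came from the platform annotation, in which 34958 probe sets had 1 symbol and 932 several.

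Each gene took its values from the probe set brightest on average. The floor was the median of an array's non-control probe sets, and 11295 genes reached it on both arrays. The genes, lists and sizes were chosen with earlier results of these data known. Genes named are the member groups, the 8 largest differences in each direction in each subunit, and up to 4 of each list, and others (among them Eef1a1, Tpt1, Mtor, Larp1, Gas5, Yy1 and Gabpb1) were added after their values were seen. Symbols were matched to RefSeq (GRCm38.p6), 50 of 50. The calling steps were tested on simulated data with planted 2-fold and 3-fold differences and the same noise at every signal level. On these arrays the spread narrows with signal, and differences as small as the family's were not covered by that test. Python 3.11.15, pandas 2.3.3 and statsmodels 0.14.6 (lowess, span 0.3) were used. The alternatives were 3 scalings, other floors, added constants, other summaries over probe sets and other sizes.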

Additional observations from a re-analysis of the deposited data

How the results depend on the processing

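No ribosomal protein gene passed 1.5-fold under any of 11 alternatives to the deposited values, nor 2-fold or 3-fold with them. The family's median ran from -0.015 (loess centring) to 0.068 (median difference set to 0), and its sign turned in 4 of the alternatives. The pooled SD between probe sets of one gene was 0.20, which describes single probe sets and does not measure the spread of a median over 48 genes. The number of genes lower in the knockout was 23 of 48 as deposited and 11 with the median difference set to 0. Over every measured probe set with a ribosomal protein symbol, shared ones included, 100 of 195 were lower (chosen after seeing the data). Of 41 named genes 22 kept their sign in every setting, among them Rpl39l, Rpl14, Rps25 and Rpl22l1. These have 1 probe set each, so only the scalings and the added constants could change their values. Their kept sign is therefore not read as support. Without probe sets ending in _x_at or _s_at, Rps24 became -0.26 and Rps9 -0.32, since a dimmer probe set then represents them. No paired analysis was possible because the groups hold 1 array each. The arrays' lack of replicates and the unknown saturation of bright probes limit every value.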
